A study of Mus musculus with 13 samples.

Results

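The genotype by cell fraction interaction asks of every gene whether knockout-labelled and control islet cells differed by the same amount in beta cells and in non-beta cells. It was taken over 19942 of the 55421 genes in the count table. These had a minimum of reads in at least as many libraries as the smallest group holds, from any group. A gene could thus pass through a single group in which it was high. All 13 libraries of the series entered. For each gene the beta effect is the log2 fold change of knockout-labelled over control beta cells, the non-beta effect is the same in non-beta cells, and the interaction is the beta effect minus the non-beta effect. The mice were of the C57BL/6 strain, aged 10 to 20 weeks, and all of them carried Ins1.Cre/+ and Rosa26.mTmG/mTmG. Controls were Txnrd1 +/+ and the knockout-labelled mice Txnrd1 fl/fl. The Cre recombinase is made from the Ins1 insulin locus, so that the membrane reporter turns from Tomato to GFP in beta cells. GFP-positive cells were the beta fraction (4 control and 3 knockout-labelled libraries) and Tomato-positive cells the non-beta fraction (3 control and 3 knockout-labelled libraries), sorted after a night in culture. Non-beta cells of the knockout-labelled mice carried the floxed alleles as well, and no group without Cre was analysed here. The labels do not say whether replicates came from separate mice, so that p-values measure the spread between these libraries, which may be technical.

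Thioredoxin reductase 1, the product of Txnrd1, is a selenium-containing enzyme of the cytosol that uses NADPH to keep thioredoxin reduced. Thioredoxin in turn serves peroxiredoxins, ribonucleotide reductase and other enzymes that need reduced thiols, and works beside the glutathione system. The transcription factor NRF2, held back by KEAP1 in unstressed cells, turns on genes for glutathione synthesis, NADPH production, iron storage and the conjugation of foreign compounds through antioxidant response elements, and Txnrd1 itself is among its known targets. Beta cells are known for low levels of several antioxidant enzymes, catalase among them.

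The start regions of 4 genes on which the interaction turned are shown, chosen among those that hold the core letters of an antioxidant response element. They are RefSeq windows of GRCm38.p6 from 250 bases before to 50 bases after the gene start, 5′ to 3′ on the gene's strand, with capitals on each match to TGACNNNGC or TGAGNNNGC on either strand. They lie at chr19:4037863-4038162 on the minus strand for Gstp1, at chrX:164269181-164269480 on the plus strand for Pir, at chr9:86695865-86696164 on the minus strand for Me1 and at chr2:152105274-152105573 on the plus strand for Srxn1.
Gstp1: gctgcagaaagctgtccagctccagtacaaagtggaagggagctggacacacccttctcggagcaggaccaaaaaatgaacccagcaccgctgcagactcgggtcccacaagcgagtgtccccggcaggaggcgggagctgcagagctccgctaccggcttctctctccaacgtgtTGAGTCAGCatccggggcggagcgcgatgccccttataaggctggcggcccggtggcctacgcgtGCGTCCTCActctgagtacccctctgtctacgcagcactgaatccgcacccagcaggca
Pir: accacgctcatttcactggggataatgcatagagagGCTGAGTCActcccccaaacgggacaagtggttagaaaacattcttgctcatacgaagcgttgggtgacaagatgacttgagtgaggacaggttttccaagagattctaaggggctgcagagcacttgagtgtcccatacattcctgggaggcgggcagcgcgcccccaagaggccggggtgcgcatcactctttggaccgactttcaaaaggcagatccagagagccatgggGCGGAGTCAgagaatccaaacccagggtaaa
Me1: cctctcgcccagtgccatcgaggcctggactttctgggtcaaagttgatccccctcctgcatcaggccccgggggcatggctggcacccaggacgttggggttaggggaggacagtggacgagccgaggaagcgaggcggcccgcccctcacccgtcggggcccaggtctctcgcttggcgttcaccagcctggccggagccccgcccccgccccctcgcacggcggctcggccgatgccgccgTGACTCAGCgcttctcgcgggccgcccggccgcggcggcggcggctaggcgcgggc
Srxn1: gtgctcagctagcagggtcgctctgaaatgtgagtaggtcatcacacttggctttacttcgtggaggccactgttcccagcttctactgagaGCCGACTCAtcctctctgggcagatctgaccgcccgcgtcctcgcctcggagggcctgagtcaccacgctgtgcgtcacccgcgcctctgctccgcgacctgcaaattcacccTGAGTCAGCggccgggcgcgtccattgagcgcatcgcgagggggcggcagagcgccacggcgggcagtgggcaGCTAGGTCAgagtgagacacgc
A match of these letters is a description and not a binding site. Among the NRF2 targets described further on, it was present in 10 of 17 with a window and a called positive interaction (58.8%) and in 6 of 15 without a call (40.0%); Cat, Nqo1, Ftl1, Gpx2, Aox1, Ephx1 and Esd had none in this window. Such a match was present in 41 of the 92 genes with a window and a called positive interaction (44.6%), in 13 of 44 with a called negative interaction (29.5%) and in 66 of 178 in the class called shared (37.1%, defined further on). Over all tested genes with a window it was present in 4476 of 12649 (35.4%), and over the whole table of windows in 27.8%. Where a gene had several windows, a match in any of them was counted.

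Library totals ran from 28687466 to 36775079 counts, and the fractions matched their labels by their hormone genes. Ins2, the main mouse insulin gene, made up 20.18 to 22.6% of the counts in control beta libraries and 21.24, 18.48 and 13.56% in knockout-labelled beta libraries 1 to 3. In non-beta libraries it made up 0.1593 to 0.6886%, and 2.461% in knockout-labelled library 3. The glucagon gene Gcg made up 15.69 to 19.93% of the counts in non-beta libraries and 0.02954 to 0.06819% in beta libraries, with 0.3902% in knockout-labelled beta library 3. The number 3 libraries of the knockout label thus held the most RNA of the other fraction on both sides. None of 67 tested markers of 12 cell types had a called interaction by edgeR, 17 had an unadjusted p under 0.05, and DESeq2 called 2. The beta effect was called for 8 of them (8.39% of all genes). It was higher for Krt7, Ppy, Irx1 and Pecam1, the last an endothelial marker, and lower for Mafa, Pdx1, Slc2a2 and the macrophage marker Cd68. The summed ductal markers stood at 937 to 1020 CPM (counts relative to the library size, scaled by TMM) in control and 1410 to 1650 CPM in knockout-labelled beta libraries, almost all of it Krt7, a keratin. In these sorted bulk samples fewer cells of a type and less RNA per cell cannot be told apart.

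The interaction was called for 185 genes, 122 positive and 63 negative, which is 0.928% of the genes tested (0.612% and 0.316%; edgeR quasi-likelihood test, Benjamini-Hochberg adjusted p under 0.05). Nearly all of them differed in beta cells: the beta effect was called in 184 of the 185, 121 higher and 63 lower. In 181 (0.908% of the genes tested) it was also larger in size than the non-beta effect, and these are termed beta-led. The beta libraries of the labels did not overlap in any of the 185, and the non-beta libraries did not in 38, against 27.4% and 9.74% of all genes; the interaction itself uses these values. In these 185 genes the beta effect had a median size of 1.22 on the log2 scale and the non-beta effect a median size of 0.18, against 0.24 and 0.15 over all genes tested. Over the whole table the beta effect was called for 1673 genes (8.39%) and the non-beta effect for 3 (0.015%), the latter all lower: Tdg, Rps4l and Rerg. An unadjusted p under 0.05 for the non-beta effect was found for 1312 genes, calls included (6.58%), and DESeq2 called 47. With each fraction fitted alone, 3525 beta effects and no non-beta effect were called, 821 of the latter having an unadjusted p under 0.05. The smallest called interaction had a size of 0.62, with a median standard error of 0.19 among genes measured in both fractions, so that differences below this size were mostly not detectable.

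A gene counted as measured in both fractions where the mean of its control and knockout-labelled group means reached 5 CPM in each. A gene could thus pass through the level of a single label, as the called gene Slc7a11 did in beta cells. Of 10921 such genes the interaction was called for 128, 90 positive and 38 negative (1.17%). The other 57 calls fell on genes at low level in at least 1 fraction. Among the 1673 genes with a called beta effect, 11% had a called interaction and 1489 had none. For 726 of these 1489 the 95% interval of the interaction lay within −1 to 1, that is within a factor of 2 on the fold scale. The interval excluded 0 for 1010 of the 1489, so that a missed interaction call here does not mean an equal effect in both fractions. In 169 of them the non-beta effect had the same sign with an unadjusted p under 0.05, and in 8 the opposite sign.

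The count of called interactions depended on the tool and on single libraries. DESeq2 called 557, of which 181 were among the 185. When edgeR paired the libraries by label and replicate number, a pairing that the labels do not state, it called 50, of which 46 were among the 185. With edgeR and no pairing the count was 101, 84 and 102 without control beta library 1, 2 or 3, and 80 and 110 without knockout-labelled beta library 1 or 2. Without control non-beta library 2 it was 62 and without control non-beta library 3 it was 289, while leaving out knockout-labelled non-beta library 1 or 2 gave 119 and 111. The count of called beta effects likewise was 1109, 921 and 1082 without control beta library 1, 2 or 3 and 686 and 1036 without knockout-labelled beta library 1 or 2, and that of non-beta effects ran from 2 to 7 over the 13 libraries left out in turn. All 185 genes kept their sign in each of the 24 alternative fits in which they were tested. The call itself held in all 13 fits that left out 1 library for 55 genes (44 positive, 11 negative), and in all 24 alternatives for 28 genes. Of the genes described below, Txnrd1, Gstp1, Gstp2, Pir, Cat, Me1, Srxn1, Gclc, Gsto1, Slc7a11, Gdf15, C8b, Enpep, Col6a3, F2r, Ptpn14, Ugt2b35, Ppfibp1 and 4 of the Ugt1a genes were among these 28.

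**Figure D1:**
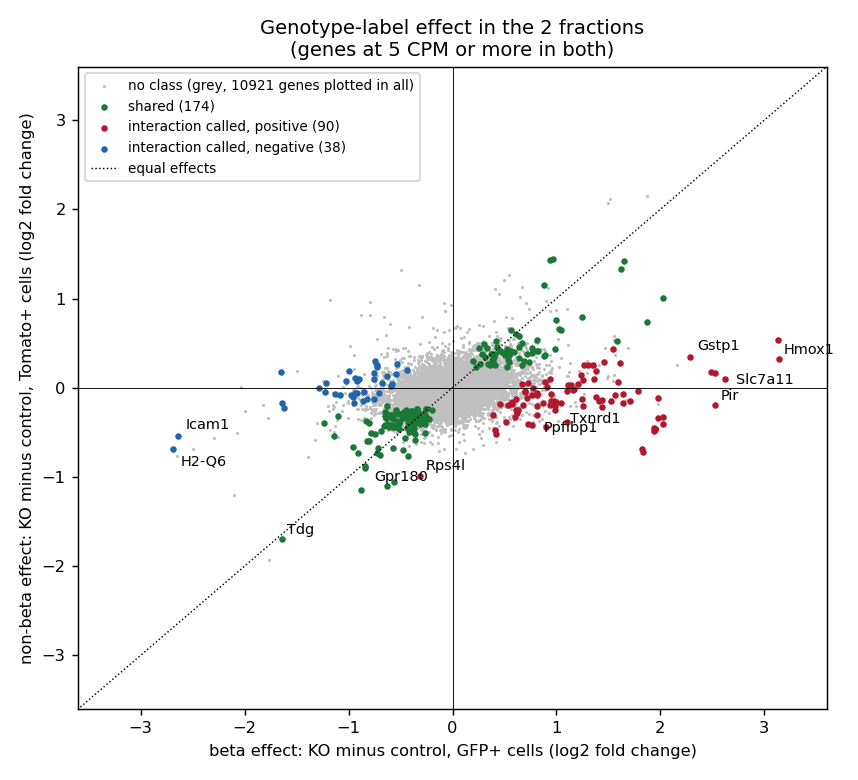
Beta effect (x axis) against non-beta effect (y axis) as log2 fold changes of knockout-labelled over control cells, for the 10921 genes measured in both fractions. Red and blue points are the 90 positive and 38 negative called interactions, which spread along the x axis close to a non-beta effect of 0, and green points are genes of the shared class, which lie nearer the dotted line of equal effects.

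Txnrd1 transcripts were higher under the knockout label in beta cells and not in non-beta cells. Txnrd1 (chr10:82833951-82897712, plus strand, GRCm38) stood at 277, 274, 293 and 324 CPM in control and 606, 599 and 540.4 CPM in knockout-labelled beta libraries. It stood at 257, 251 and 268 CPM in control and 241, 212 and 244 CPM in knockout-labelled non-beta libraries. All 3 knockout-labelled beta libraries lay above all other 10 libraries, and the 6 non-beta libraries spanned 212 to 268 CPM, with each knockout-labelled library below each control library. The interaction was 1.15 (95% interval 0.87 to 1.43, edgeR quasi-likelihood adjusted p = 0.00208), made of a beta effect of 1.0 and a non-beta effect of −0.15. The counts cover the whole gene, and the exons deleted by Cre are not given in the labels, so that this level does not check the genotype; groups are named by label.

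Genes of the NRF2 response were higher in knockout-labelled beta cells, and most of them differed from the non-beta cells in this. Of 38 tested NRF2 targets, 20 had a called positive interaction and 1, G6pdx, a called negative one, against 0.612% and 0.316% of all genes. The beta effect was called higher for 30 and lower for 1 (4.51% and 3.88% of all genes), and the non-beta effect for none by edgeR or DESeq2, with 3 at an unadjusted p under 0.05. The list's median was 1.11 for the beta effect and 0.09 for the non-beta effect, against 0.01 and −0.01 over all genes. The 20 positive calls became 11 without control beta library 2 or 3, 12 and 11 without knockout-labelled beta library 1 or 2, and 10 and 13 without control non-beta library 2 or knockout-labelled non-beta library 2; without both knockout-labelled libraries numbered 3 they were 20.

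Gstp1, a pi-class glutathione S-transferase gene, stood at 179.7, 167, 156 and 138 CPM in control and 1092, 874 and 733 CPM in knockout-labelled beta libraries. In non-beta cells it was at 171, 179 and 141 CPM in control and 189, 155 and 212 CPM in knockout-labelled non-beta libraries. The 3 knockout-labelled beta libraries were high and did not overlap with any other group, while the genotypes overlapped in non-beta cells (interaction 2.31, 95% interval 1.84 to 2.78, edgeR adjusted p = 0.000929). The neighbouring Gstp2 had an interaction of 2.60 (edgeR adjusted p = 0.0183), and reads of these near-identical copies may have been divided between them in counting.

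Pir, an iron-binding nuclear protein induced by NRF2, stood at 4.99, 3.96, 4.74 and 5.47 CPM in control and 31.8, 27.9 and 23 CPM in knockout-labelled beta libraries. Its non-beta levels were 7.43, 7.26 and 4.79 CPM in control and 4.76, 5.24 and 7.05 CPM in knockout-labelled libraries. Only the knockout-labelled beta libraries stood apart (interaction 2.72, 95% interval 2.11 to 3.32, edgeR adjusted p = 0.00122). Srxn1, which repairs overoxidised peroxiredoxins, was at 179, 184, 187 and 211 CPM in control and 716, 584 and 475 CPM in knockout-labelled beta libraries. It was at 177, 141 and 209 CPM in control and 181, 164 and 159 CPM in knockout-labelled non-beta libraries. Again the 3 knockout-labelled beta libraries were above all others and the non-beta libraries overlapped (interaction 1.70, 95% interval 1.24 to 2.16, edgeR adjusted p = 0.00385).

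Hmox1, which breaks down heme, had the highest interaction of the genes measured in both fractions, and also a wide spread. It stood at 37.5, 32.9, 33 and 69.1 CPM in control and 619.7, 310.0 and 211 CPM in knockout-labelled beta libraries. In the non-beta fraction it stood at 22.9, 12.9 and 37.6 CPM in control and 34.2, 28.9 and 28.7 CPM in knockout-labelled non-beta libraries. All 3 knockout-labelled beta libraries were high, by different amounts, and control beta library 4 lay above the other 3 controls. The interaction of 2.82 (95% interval 1.59 to 4.04, edgeR adjusted p = 0.0351) lost its call in 11 of the 24 alternatives, at adjusted p of up to 0.0939; 10 of these left out 1 library.

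Glutathione genes showed the same split in part. The lists overlap, so that their counts are not independent. Slc7a11, Gclm and Gpx2 here were also counted among the NRF2 targets. The same holds for Cat, Me1, Taldo1, G6pdx, Srxn1 and Ftl1 in the lists that follow. Of 40 tested members 8 had a called positive interaction and none a negative one (0.612% and 0.316% of all genes). A called higher beta effect was found for 17 (4.51% of all genes), and the median was 0.58 for the beta and 0.08 for the non-beta effect. Without control non-beta library 2 the count of 8 became 5, and without both knockout-labelled libraries numbered 3 it was 10. Slc7a11, the cystine importer, was at 2.23, 1.27, 2.01 and 1.63 CPM in control and 12.3, 9.07 and 11.6 CPM in knockout-labelled beta libraries. Its non-beta level was 3.56, 6.33 and 6.42 CPM in control and 5.28, 4.87 and 7.31 CPM in knockout-labelled libraries, so that the higher beta level lay above all non-beta libraries (interaction 2.53, edgeR adjusted p = 0.00681). Gclc, the catalytic subunit of the enzyme that limits glutathione synthesis, was at 46.4, 54.6, 44.5 and 55.1 CPM in control and 127, 115 and 114 CPM in knockout-labelled beta libraries. It was at 105, 104 and 87.9 CPM in control and 91.8, 73.4 and 106 CPM in knockout-labelled non-beta libraries. Control beta cells thus held less Gclc than any non-beta library, and knockout-labelled beta cells more (interaction 1.37, 95% interval 0.98 to 1.77, edgeR adjusted p = 0.00514). The modifier subunit Gclm (0.84), the omega-class transferase Gsto1 (1.33), the peroxidase Gpx2 (2.09) and the transferase Gsta4 (2.58) also had called interactions (edgeR adjusted p = 0.0415, 0.00514, 0.0157 and 0.041).

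Catalase, Cat, is on the list of genes that beta cells normally hold low, and was its only member with a called interaction, of 20 tested (0.928% of all genes). It stood at 13.8, 12.3, 15 and 16.1 CPM in control and 52.4, 41.7 and 46.1 CPM in knockout-labelled beta libraries. Outside beta cells the values were 34.1, 26.7 and 26.4 CPM in control and 29.5, 21.5 and 27.9 CPM in knockout-labelled non-beta libraries. Control beta libraries were the lowest of the 4 groups and knockout-labelled beta libraries the highest, with no overlap (interaction 1.85, 95% interval 1.41 to 2.29, edgeR adjusted p = 0.00176).

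NADPH-producing enzymes moved both ways in beta cells, with 2 called positive and 1 called negative interaction among 23 tested (0.612% and 0.316% of all genes). The malic enzyme Me1 stood at 46.8, 43.4, 47.4 and 48.5 CPM in control and 83.9, 82.7 and 79.3 CPM in knockout-labelled beta libraries, and between 41.1 and 47.7 CPM in all 6 non-beta libraries. Its interaction was 0.90 (95% interval 0.66 to 1.14, edgeR adjusted p = 0.00382), with little spread inside any group. Taldo1 of the pentose phosphate pathway had an interaction of 0.77 (edgeR adjusted p = 0.0281). G6pdx, the entry enzyme of that pathway, stood at 72.5, 66.2, 66.8 and 74.5 CPM in control and 37.3, 33.9 and 36.8 CPM in knockout-labelled beta libraries. Sorted non-beta cells gave 54.7, 64.6 and 46.6 CPM in control and 54.4, 46.5 and 53.4 CPM in knockout-labelled non-beta libraries, where the genotypes overlapped. Its interaction was −0.86 (edgeR adjusted p = 0.0243), and 13.6% of its exon bases are shared with Ikbkg, whose interaction was 1.53 with the opposite sign. The calls of Taldo1 and G6pdx were each lost in 8 of the 24 alternatives, at adjusted p of up to 0.0882 and 0.11.

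Few differences between the fractions passed in the thioredoxin and peroxiredoxin system around Txnrd1. Srxn1 was the only called interaction among 27 tested (0.928% of all genes). The beta effect was called higher for 3 and lower for 3 (4.51% and 3.88% of all genes). Prdx1, a peroxiredoxin, had a called beta effect of 0.75 and an interaction of 0.59 whose 95% interval was 0.21 to 0.96 (edgeR adjusted p = 0.00205 and 0.166). In the iron list, 3 of 20 had a called positive interaction (0.612% of all genes): Hmox1, Slc7a11 and the ferritin light chain Ftl1. Ftl1 had an interaction of 1.09 (edgeR adjusted p = 0.0285), shares 34.6% of its exon bases with other genes, and lost its call in 10 alternatives, at adjusted p of up to 0.122.

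**Figure D2:**
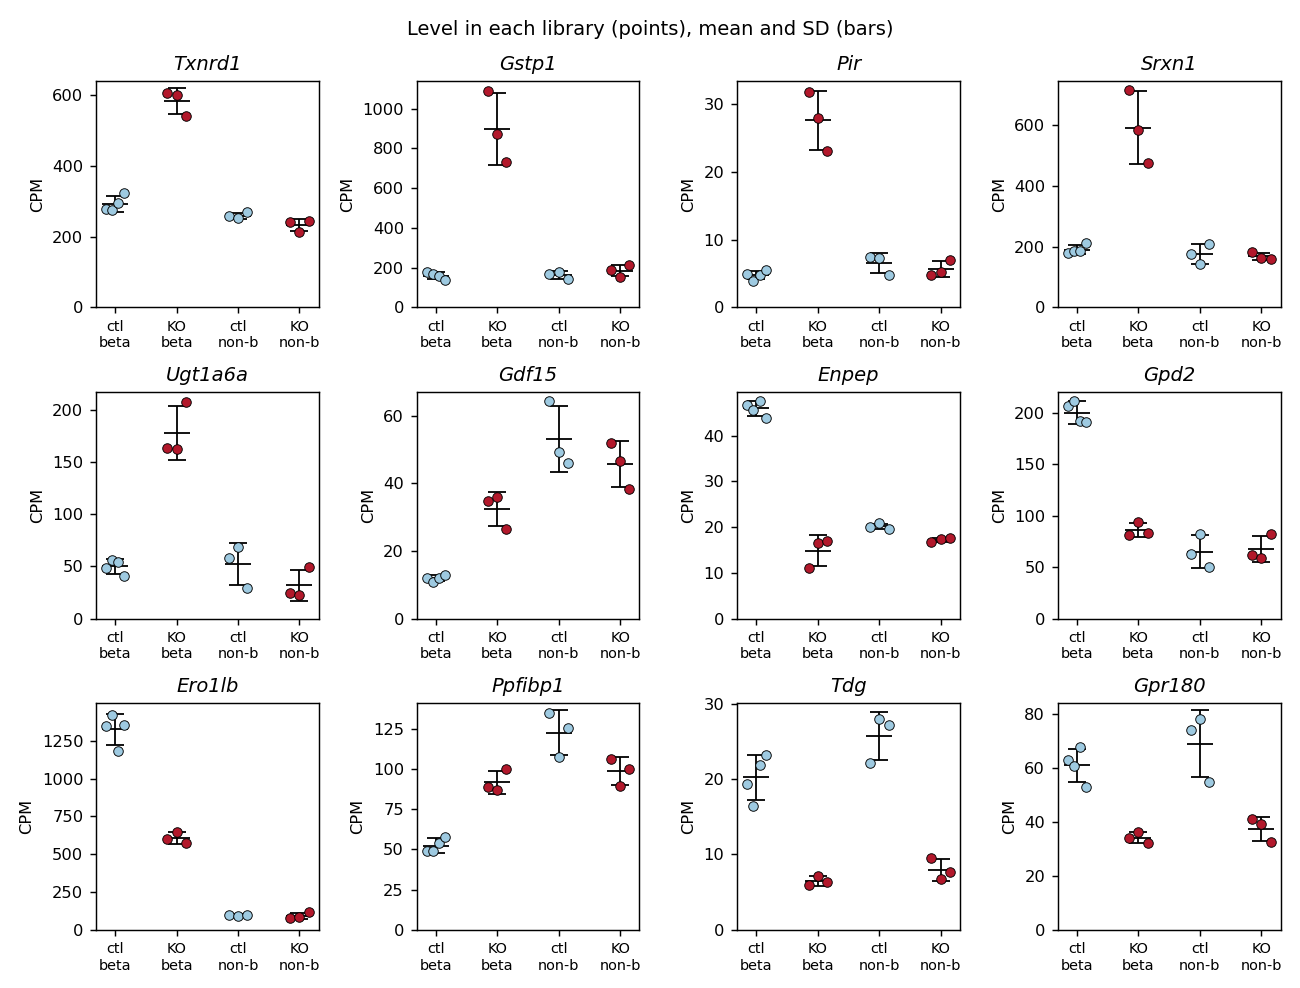
Level in CPM (y axis, from 0) of 12 genes in the 4 groups, control beta, knockout-labelled beta, control non-beta and knockout-labelled non-beta; points are libraries, bars the mean and SD. For Txnrd1, Gstp1, Pir, Srxn1 and Ugt1a6a only the knockout-labelled beta libraries stand high, for Tdg and Gpr180 the knockout-labelled libraries of both fractions stand low.

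Genes for UDP-glucuronosyltransferases, which attach glucuronic acid to bilirubin, drugs and steroids, made up much of the upper end. All 9 tested genes of the Ugt1a cluster on chromosome 1 had a called interaction, from 2.39 to 2.55, but they share most of their exon bases and their counts were nearly the same, so that they carry about the information of 1 measurement. Ugt1a6a stood at 48.8, 56.2, 54.3 and 40.7 CPM in control and 164, 163 and 208 CPM in knockout-labelled beta libraries. In non-beta cells it was at 58.1, 69 and 29.5 CPM in control and 24.1, 22.2 and 49 CPM in knockout-labelled non-beta libraries. The beta libraries did not overlap, and in non-beta cells knockout-labelled library 3 lay among the controls (interaction 2.55, 95% interval 1.64 to 3.45, edgeR adjusted p = 0.0136). Here the difference between fractions came from both sides, a beta effect of 1.83 and a non-beta effect of −0.72 that was not called (edgeR adjusted p = 0.75). On chromosome 5, the conjugating enzyme genes Ugt2b34, Ugt2b35 and Ugt2b36 had positive and the sulfotransferase gene Sult1d1 a negative called interaction. They were 4 of 6 tested genes between 86.9 and 87.6 Mb, a stretch bounded by these genes themselves.

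Part of the integrated stress response was higher in knockout-labelled beta cells. Of 34 integrated stress response genes, which are switched on when translation is slowed, 4 had a called positive interaction and none a negative one (0.612% and 0.316% of all genes); the beta effect was called higher for 13 (4.51% of all genes). DESeq2 called 8 positive interactions. The 4 calls became 2 without control beta library 1, 2 or 4, knockout-labelled beta library 1, control non-beta library 2 or knockout-labelled non-beta library 1, and 10 without control non-beta library 3. Gdf15, a secreted stress hormone, stood at 12, 10.8, 12 and 13 CPM in control and 34.9, 35.9 and 26.6 CPM in knockout-labelled beta libraries. In the non-beta fraction it stood at 64.3, 49.3 and 45.9 CPM in control and 51.8, 46.7 and 38.4 CPM in knockout-labelled non-beta libraries. The knockout-labelled beta libraries lay between the control beta and the non-beta libraries, with no overlap between the beta groups (interaction 1.66, 95% interval 1.20 to 2.11, edgeR adjusted p = 0.00454). The cationic amino acid carrier Slc7a3 (2.94) and the transcription factor Cebpb (1.03) passed as well (edgeR adjusted p = 0.0263 and 0.0348), and lost their calls in 13 and 12 of the alternatives, at up to 0.169 and 0.144. Trib3, a pseudokinase of this response, had a called beta effect of 1.19 and an interaction of 1.39 that did not pass (edgeR adjusted p = 0.0142 and 0.136).

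Of 22 heat shock genes only the small chaperone Hspb8 had a called interaction, against 0.928% of all genes (1.82, 95% interval 1.18 to 2.46, edgeR adjusted p = 0.0131). Of 25 p53 targets only Gdf15 did, and of 29 immediate early genes, which report recent handling or stimulation of cells, none did by edgeR, with 5 at an unadjusted p under 0.05 and 2 called by DESeq2. The immediate early genes still had a median of 0.47 for the beta and 0.05 for the non-beta effect, with 4 called higher in beta cells (4.51% of all genes). Atf3 among them had a beta effect of 2.16 and an interaction of 1.91 with a 95% interval of 0.72 to 3.09 (edgeR adjusted p = 0.00433 and 0.154).

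At the lower end, genes with varied roles were lower in knockout-labelled beta cells and differed less or not detectably in non-beta cells. Enpep, an aminopeptidase of the cell surface, stood at 46.7, 45.6, 47.7 and 43.8 CPM in control and 11, 16.5 and 17.1 CPM in knockout-labelled beta libraries. Outside beta cells the values were 20.0, 20.8 and 19.6 CPM in control and 16.7, 17.3 and 17.6 CPM in knockout-labelled non-beta libraries. Control beta cells were the high group, and the knockout-labelled beta libraries reached the range of the non-beta cells or below. In non-beta cells, too, each knockout-labelled library lay below each control, by less, and the non-beta effect of −0.23 was not called (adjusted p = 0.808; interaction −1.40, 95% interval −1.80 to −1.0, edgeR adjusted p = 0.00509). Gpd2, the mitochondrial enzyme of the glycerol phosphate shuttle, was at 207, 212, 192 and 191 CPM in control and 80.9, 94.2 and 83.6 CPM in knockout-labelled beta libraries. It was at 63.2, 82.2 and 50.2 CPM in control and 61.7, 58.6 and 81.8 CPM in knockout-labelled non-beta libraries, where the genotypes overlapped. Its interaction was −1.26 (95% interval −1.75 to −0.78, edgeR adjusted p = 0.0183), with the call lost in 4 alternatives at up to 0.0752.

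C8b, a chain of the terminal complement complex, was at 26, 23.3, 21.5 and 18.5 CPM in control and 8.47, 5.93 and 7.18 CPM in knockout-labelled beta libraries. Its non-beta levels were 69.7, 67 and 69.1 CPM in control and 64.9, 54.4 and 63.7 CPM in knockout-labelled libraries. The non-beta cells held the higher level, and the labels did not overlap in either fraction, with a beta effect of −1.64 and a non-beta effect of −0.17 that was not called (adjusted p = 0.857; interaction −1.47, 95% interval −1.88 to −1.05, edgeR adjusted p = 0.00472). Upp1, which splits uridine, stood at 90.3, 90.9, 100.4 and 71.7 CPM in control and 38.7, 42.5 and 32 CPM in knockout-labelled beta libraries. In non-beta cells it ranged from 70.1 to 98.1 CPM over both labels (interaction −1.18, edgeR adjusted p = 0.0183, lost in 4 alternatives at up to 0.0876). Further calls in this direction were the glutamate receptor subunit Gria3 (−1.83), the matrix protein Tnr (−1.27) and the arginine and lysine carrier Slc7a2 (−1.10), with edgeR adjusted p of 0.0365, 0.0273 and 0.0361. These last calls were lost in 10, 8 and 10 of the alternatives, at up to 0.112, 0.131 and 0.122.

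Some genes of beta-cell identity were lower in knockout-labelled beta cells, and few of them had a called interaction. Of 41 tested, 34 of which were measured in both fractions, 10 had a called lower and none a called higher beta effect (3.88% and 4.51% of all genes). A called negative interaction was found for 2, Ero1lb and Slc30a8 (0.316% of all genes). DESeq2 called 5 negative interactions in this list, and edgeR none without knockout-labelled beta library 1, control non-beta library 2 or both control libraries numbered 4, and 1 without control beta library 1, 2 or 3, knockout-labelled beta library 2 or 3, control non-beta library 3 or 4 or knockout-labelled non-beta library 2 or 3. The median was −0.45 for the beta and 0.09 for the non-beta effect. Ero1lb, an oxidase of the endoplasmic reticulum used in insulin folding, stood at 1351, 1422, 1181 and 1358 CPM in control and 598, 649 and 576 CPM in knockout-labelled beta libraries. Sorted non-beta cells gave 99.9, 91.8 and 100.1 CPM in control and 79.9, 82.3 and 115 CPM in knockout-labelled non-beta libraries. The beta groups were far apart and the non-beta groups overlapped (interaction −1.06, 95% interval −1.45 to −0.66, edgeR adjusted p = 0.0165), a call lost in 4 alternatives at up to 0.0881. The granule zinc carrier Slc30a8 had an interaction of −0.97 (edgeR adjusted p = 0.0473), lost in 15 of the 24 alternatives at up to 0.139.

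Some other beta-cell genes had a called beta effect without a called interaction. Slc2a2, the glucose transporter of mouse beta cells, stood at 250.1, 293, 195 and 230.5 CPM in control and 49.4, 69.9 and 57.6 CPM in knockout-labelled beta libraries. In non-beta cells it was at 4.98, 6.82 and 3.53 CPM in control and 2.38, 1.66 and 11.4 CPM in knockout-labelled non-beta libraries, highest in the library with the most Ins2. The beta effect was called (−2.04, edgeR adjusted p = 0.014), while the interaction of −2.04 had a 95% interval of −3.49 to −0.60 and did not pass (adjusted p = 0.204). Mafa, a transcription factor of mature beta cells, had a beta effect of −1.76 and an interaction of −1.23 (edgeR adjusted p = 0.0026 and 0.263). Its highest non-beta level was 4.95 CPM in control library 4, against 3.66 CPM in knockout-labelled library 3. The part of carried-over beta RNA in these non-beta values was not tested. Of 29 granule and exocytosis genes only Slc30a8 passed, and of 15 alpha-cell genes only Slc7a2 (0.928% of all genes). In the unfolded protein response list none of 30 passed by edgeR, 6 had an unadjusted p under 0.05 and DESeq2 called 4. In beta cells 6 of the list were called lower (3.88% of all genes). The disulfide isomerase gene Pdia6 had a beta effect of −0.68 and an interaction of −0.55 (95% interval −0.89 to −0.22, edgeR adjusted p = 0.00194 and 0.139).

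Some immune-type genes were lower in knockout-labelled beta cells, most did not pass, and the median non-beta effect of these lists was also below 0. Of 21 genes of MHC class I presentation 9 were called lower in beta cells (3.88% of all genes). A called negative interaction was found for 1 (0.316% of all genes), and 1, Tapbp, was in the shared class (1.36% of all genes). DESeq2 called 4 negative interactions, and edgeR none without knockout-labelled beta library 1 or control non-beta library 2 and 2 without knockout-labelled beta library 3. The medians were −0.44 for the beta and −0.13 for the non-beta effect. H2-Q6, a class I gene of the Q region, stood at 34.5, 19.6, 39.1 and 33.5 CPM in control and 5.25, 3.17 and 6.32 CPM in knockout-labelled beta libraries. In the non-beta fraction it stood at 69.9, 62.2 and 97.7 CPM in control and 51.4, 48.4 and 42.9 CPM in knockout-labelled non-beta libraries. The genotypes did not overlap in either fraction, with knockout-labelled libraries the lower, and the beta effect (−2.69) was larger in size than the non-beta effect (−0.69); the interaction was −2.0 (95% interval −2.78 to −1.22, edgeR adjusted p = 0.0207, lost in 3 alternatives at up to 0.0802). Reads of the similar Q genes may have been divided among them. Of 29 NF-kappaB genes 5 were called lower in beta cells (3.88% of all genes), and only Icam1 had a called interaction (0.928% of all genes). Icam1, a leukocyte adhesion molecule, was at 19.5, 15.4, 29.8 and 16.9 CPM in control and 2.54, 3.48 and 3.76 CPM in knockout-labelled beta libraries. Its non-beta levels were 15.1, 27.5 and 24.9 CPM in control and 17, 18.8 and 10.3 CPM in knockout-labelled libraries, which overlap. The interaction of −2.09 (edgeR adjusted p = 0.0303) was lost in 11 of the 24 alternatives at up to 0.103, and 11.7% of its exon bases are shared.

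In the interferon list, none of 36 had a called interaction by edgeR or DESeq2, and 4 had an unadjusted p under 0.05. In beta cells 6 were called lower (3.88% of all genes), and the medians were alike: −0.35 for the beta and −0.35 for the non-beta effect. Gbp2, an interferon-induced GTPase, had a beta effect of −2.08 and a non-beta effect of −0.51; the 95% interval of its interaction was −2.76 to −0.37 (edgeR adjusted p = 0.241). Summed macrophage markers stood at 111 to 136 CPM in control and 84.5 to 104 CPM in knockout-labelled beta libraries, and at 361 to 384 CPM in control and 455 to 474 CPM in knockout-labelled non-beta libraries. In beta libraries nearly all of this sum came from Cd68, C1qa and Csf1r. The markers C1qb, C1qc, Lyz2, Adgre1 and Ptprc reached at most 3.58 CPM there, each highest in knockout-labelled library 3. Their beta effects were positive and not called (1.86, 3.29, 2.77, 2.16 and 1.43). The sum thus does not show fewer macrophages in knockout-labelled beta libraries. The part of macrophages in the immune-type values was not tested.

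**Figure D3:**
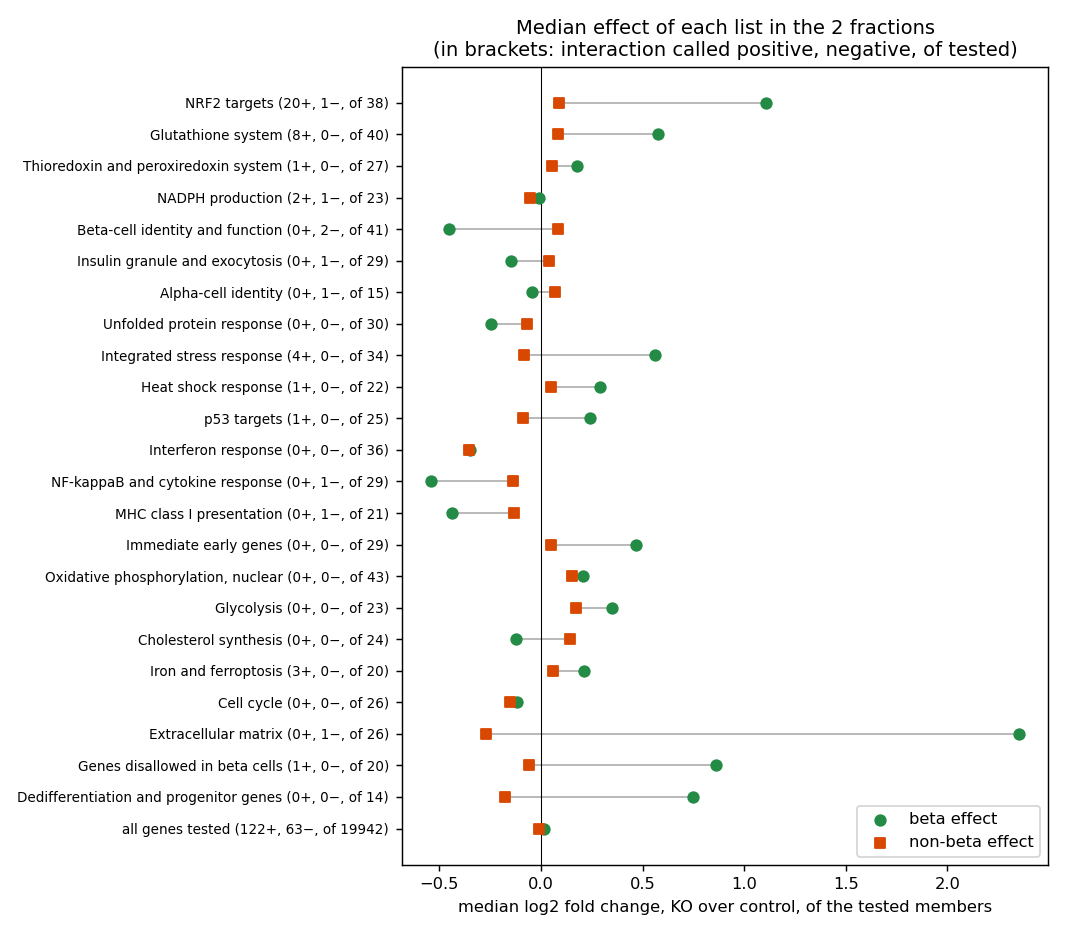
Median log2 fold change, knockout-labelled over control, of the tested members of 23 gene lists and of all genes tested, as the beta effect (circles) and the non-beta effect (squares); brackets give called positive and negative interactions. The NRF2 list has medians of 1.11 and 0.09 and the interferon list of −0.35 in both fractions; 24 of the 26 extracellular matrix genes were not measured in both.

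Among called genes below 5 CPM in at least 1 fraction, those named had interactions with wider intervals. Col6a3, a collagen VI chain, stood at 12.3, 12.2, 19 and 18.3 CPM in control and 0.926, 0.965 and 1.40 CPM in knockout-labelled beta libraries. Its non-beta levels were 0.696, 3.29 and 2.29 CPM in control and 1.53, 1.52 and 2.29 CPM in knockout-labelled libraries. High in control beta cells alone, it had an interaction of −3.57 (95% interval −4.81 to −2.33, edgeR adjusted p = 0.0131). Fmo1, a flavin monooxygenase, was at 26.3, 23.8, 29.9 and 25.6 CPM in control and 2.50, 2.92 and 2.75 CPM in knockout-labelled beta libraries. It was at 1.17, 1.49 and 0.784 CPM in control and 0.293, 0.541 and 1.01 CPM in knockout-labelled non-beta libraries. The genotypes did not overlap in beta cells and overlapped in non-beta cells, and the interaction was −2.38 (edgeR adjusted p = 0.0188, lost in 6 alternatives at up to 0.0873). The cadherin genes Pcdh15 (−2.28) and Cdh7 (−2.06) and AW112010 (−2.14) also passed with a negative sign (edgeR adjusted p = 0.0131, 0.0361 and 0.0311); the calls of Cdh7 and AW112010 were lost in 13 and 11 alternatives.

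In the positive direction, F2r, the thrombin receptor gene, stood at 0.328, 0.357, 0.215 and 0.621 CPM in control and 3.12, 2.76 and 3.68 CPM in knockout-labelled beta libraries. Outside beta cells the values were 21.8, 17.2 and 23.1 CPM in control and 18.2, 11.3 and 18 CPM in knockout-labelled non-beta libraries. Knockout-labelled beta libraries lay above the control beta libraries and far below the non-beta libraries (interaction 3.41, 95% interval 2.62 to 4.21, edgeR adjusted p = 0.0015). Some markers of non-beta cells moved with this. Ppy, the pancreatic polypeptide gene, was at 333, 277 and 875 CPM in knockout-labelled beta libraries 1 to 3 against 99.5 to 253 CPM in control ones, and the alpha-cell factor gene Irx1 at 0.274, 0.138 and 0.907 CPM against 0 to 0.066 CPM (beta effect edgeR adjusted p = 0.0319 and 0.0126). Summed alpha-cell markers were at 605 to 3680 CPM against 450 to 821 CPM, and those of PP cells at 404 to 1220 CPM against 166 to 375 CPM. Their part in the values of F2r and of other genes low in control beta cells was not tested. Ptpn14, a tyrosine phosphatase gene, was at 0.230, 0.292, 0.610 and 0.858 CPM in control and 9.16, 5.63 and 4.56 CPM in knockout-labelled beta libraries. Its non-beta levels were 2.56, 2.42 and 4.79 CPM in control and 3.84, 2.50 and 2.51 CPM in knockout-labelled libraries, so that the knockout-labelled beta libraries lay at or above the upper end of the non-beta range (interaction 3.81, 95% interval 2.58 to 5.04, edgeR adjusted p = 0.00927). Ugt2b35 (3.50), the adaptor gene Sh2b2 (3.10) and Filip1l (3.01) passed as well (edgeR adjusted p = 0.0131, 0.00761 and 0.0361), from control beta levels of at most 0.323 CPM, where fitted folds rest on few reads. Filip1l lost its call in 16 alternatives, at up to 0.149.

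The extracellular matrix list had the largest median beta effect, 2.35, with only 2 of 26 genes measured in both fractions and no called higher beta effect. Nid1, a basement membrane gene, shows the pattern: it stood at 0.0660, 0, 0 and 0.0590 CPM in control and 0, 0.110 and 0.907 CPM in knockout-labelled beta libraries. Most reads were in knockout-labelled beta library 3, where the summed stellate and fibroblast markers reached 5.36 CPM against 0.164 to 0.718 CPM in the other beta libraries. The part of other cells in these values was not tested.

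A non-beta effect that exceeded the beta effect was called for 1 gene, Rps4l (0.00501% of the genes tested). A further 26 genes (0.13%) were classed as opposite by a looser rule given below. Rps4l, annotated as a pseudogene of a ribosomal protein, stood at 64, 71.8, 74.9 and 72.5 CPM in control and 56.5, 57.9 and 56.6 CPM in knockout-labelled beta libraries. Sorted non-beta cells gave 88.1, 80.1 and 77.1 CPM in control and 37, 47.7 and 39 CPM in knockout-labelled non-beta libraries. Knockout-labelled libraries were below the controls in both fractions, further in non-beta cells (beta effect −0.31, non-beta effect −0.99, interaction 0.68, edgeR adjusted p = 0.0415). The call was lost in 16 of the 24 alternatives, at up to 0.148, and reads of related copies may have been divided in counting.

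Opposite genes were those with a called interaction and effects of opposite sign, each at an unadjusted p under 0.05. Of these, 21 were higher in knockout-labelled beta cells and 5 lower. The non-beta effect was called for none of them, and selection by a called interaction itself favours effects of opposite sign. Ppfibp1, a liprin scaffold gene, stood at 48.9, 48.7, 54.1 and 57.7 CPM in control and 88.7, 86.6 and 99.7 CPM in knockout-labelled beta libraries. In non-beta cells it was at 135, 107 and 125 CPM in control and 106, 89.4 and 100.1 CPM in knockout-labelled non-beta libraries. The beta groups did not overlap, and in non-beta cells all knockout-labelled libraries lay below all controls, by less than 1 CPM (interaction 1.12, 95% interval 0.79 to 1.45, edgeR adjusted p = 0.00514). The non-beta effect alone did not pass (−0.31, edgeR adjusted p = 0.685). Slc9a3r2, a scaffold of membrane transporters, had a beta effect of 0.42 and a non-beta effect of −0.52 (interaction edgeR adjusted p = 0.0111). Entpd5, a nucleotide hydrolase of the endoplasmic reticulum, had effects of 0.76 and −0.41, and Grb10, an adaptor that dampens insulin receptor signalling, of 0.72 and −0.41 (interaction edgeR adjusted p = 0.0122 and 0.0123). For Pde2a, a cyclic nucleotide phosphodiesterase with a beta effect of 2.10 from levels of at most 0.359 CPM in control beta cells, the non-beta effect was −0.51, and 64.3% of its exon bases are shared with another gene.

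**Figure D4:**
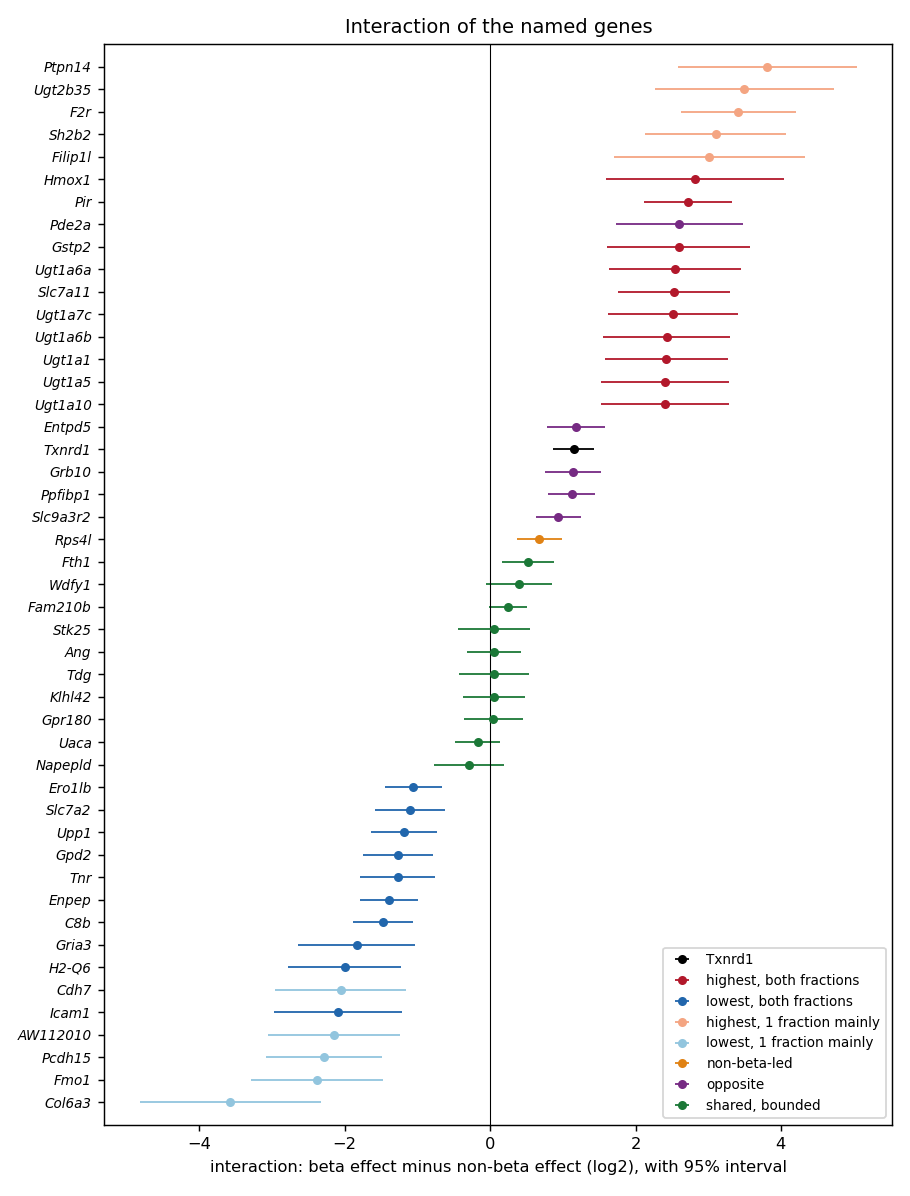
Interaction of the named genes (beta effect minus non-beta effect, log2, x axis) with its 95% interval, coloured by the rule that named each gene. The intervals of genes below 5 CPM in at least 1 fraction, such as Ptpn14 (2.58 to 5.04), are wider than that of Txnrd1 (0.87 to 1.43), and the shared genes lie between −1 and 1.

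Genes that differed in the same direction in both fractions were collected by a looser rule. A gene was put in the shared class where the average of both effects was called, the interaction was not, and both effects had the same sign with an unadjusted p under 0.05. An unadjusted p under 0.05 for the non-beta effect was found for 1312 of all genes tested (6.58%). After adjustment the non-beta effect was called for only 3 genes in all, of which Rps4l is outside the class. Over the whole table the average effect was called for 794 genes (3.98%), 380 higher and 414 lower (1.91% and 2.08%). All conditions held for 271 genes (1.36% of those tested), 112 higher and 159 lower, and for 175 of them (0.878%) the 95% interval of the interaction lay within −1 to 1. In 204 of the 271 the labels did not overlap in either fraction, in the same direction, which was so for 2.22% of all genes, from the values that define the class. The beta effect was the larger in size in 189, with median sizes of 0.65 for the beta and 0.50 for the non-beta effect. Predicted genes or pseudogenes by name made up 70 of the 271, against 14 of the 185 called interactions. The class rested on single libraries: it held 140, 167 and 169 genes without control beta library 2, 3 or 4, 133 and 164 without knockout-labelled beta library 1 or 2, 128 and 140 without control non-beta library 2 or knockout-labelled non-beta library 1, and 604 without knockout-labelled non-beta library 3.

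Tdg, which encodes a DNA glycosylase that removes thymine from mismatches and takes part in DNA demethylation, had the smallest p of the average effect among the shared genes named here. It stood at 19.4, 16.5, 21.9 and 23.2 CPM in control and 5.97, 7.17 and 6.29 CPM in knockout-labelled beta libraries. In the non-beta fraction it stood at 22.1, 27.9 and 27.2 CPM in control and 9.51, 6.72 and 7.61 CPM in knockout-labelled non-beta libraries. The knockout-labelled libraries were low in both fractions with no overlap, and the effects differed by less than their error (beta −1.64, non-beta −1.70, interaction 0.05, 95% interval −0.43 to 0.54; average −1.67, edgeR adjusted p = 2.66e-05). Gpr180, a membrane protein gene, was at 62.9, 60.5, 67.6 and 52.7 CPM in control and 34.1, 36.1 and 32 CPM in knockout-labelled beta libraries. It was at 74.2, 78 and 54.8 CPM in control and 40.9, 39.1 and 32.4 CPM in knockout-labelled non-beta libraries. Both fractions separated by label, with a beta effect of −0.84, a non-beta effect of −0.88 and a 95% interval of the interaction of −0.36 to 0.45 (average effect edgeR adjusted p = 0.000716).

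Among the NRF2 targets the ferritin heavy chain gene Fth1 was the only member in the shared class. It stood at 701, 593, 632 and 508 CPM in control and 1228, 1121 and 1004 CPM in knockout-labelled beta libraries. Outside beta cells the values were 904, 952 and 989.9 CPM in control and 1293, 1207 and 1139 CPM in knockout-labelled non-beta libraries. Knockout-labelled libraries were above controls in both fractions, with a beta effect of 0.88 and a non-beta effect of 0.35; the interaction of 0.52 had a 95% interval of 0.17 to 0.88 that leaves out 0 and an edgeR adjusted p of 0.187, so that an equal effect in both fractions is not shown. The endosomal adaptor gene Wdfy1 (average 0.85), the ribonuclease gene Ang (0.61) and the mitochondrial protein gene Fam210b (0.42) were higher in both (edgeR adjusted p = 0.00167, 0.00255 and 0.00309). The kinase gene Stk25 (−0.87), the ubiquitin ligase adaptor gene Klhl42 (−0.73), the lipase gene Napepld (−0.81) and Uaca (−0.50) were lower in both (edgeR adjusted p = 0.00223, 0.00242, 0.00247 and 0.00301). Stk25 shares 23.6% and Ang 18.2% of its exon bases with neighbours.

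Other shared genes from the lists were few. They were the peroxidase Gpx4 and the transferase Gstt2 among glutathione genes, Nupr1 of the integrated stress response, the chaperones Hsp90aa1 and Hspe1, the p53 target Gadd45a, the iron transporter Slc11a2, the replication helicase subunit Mcm6, and Ccl2, Nos2 and Bcl3 of the NF-kappaB list. Nupr1, a stress-induced chromatin protein gene, had a beta effect of 2.03 and a non-beta effect of 1.01 (average effect edgeR adjusted p = 0.000538), and Gpx4 of 0.73 and 0.29 (average effect edgeR adjusted p = 0.0088). Slc11a2, Mcm6, Tapbp, Ccl2 and Nos2 were lower and the others higher. Lists of nuclear oxidative phosphorylation (43 tested), glycolysis (23), cholesterol synthesis (24), cell cycle (26) and dedifferentiation genes (14) held no called interaction by edgeR, with 1, 3, 2, 2 and 5 members at an unadjusted p under 0.05 and 1 call by DESeq2, in glycolysis; the oxidative phosphorylation list had medians of 0.21 for the beta and 0.15 for the non-beta effect, and that of cholesterol synthesis −0.12 and 0.14.

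Many genes of the shared class lay near each other. Of the 271, 115 (42.4%) had another shared gene within 1 Mb, while 25.7% of all tested genes had a shared gene that near. For called interactions the values were 32.4% and, over all genes, 20.8%. With the Ugt1a genes left out 28.4% of called interactions had another that near, and no value over all genes was taken for that set. The 1 Mb rule was chosen after the values were seen and has no test. The densest stretches were on chromosome 6 between 142.8 and 144.8 Mb, with 4 of 7 tested genes in the class, on chromosome 1 between 93.5 and 93.9 Mb, with 4 of 10, Stk25 among them, on chromosome 6 between 134.8 and 136.8 Mb, with 7 of 24, and on chromosome 5 between 36.5 and 38.2 Mb, with 6 of 23. Each stretch starts and ends at genes of the class, which raises the share inside it. In the chromosome 1 and chromosome 5 stretches and in the first of chromosome 6 all members were lower under the knockout label. Some of these genes overlap and share reads.

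Shared genes also lay near Txnrd1, less densely. Between 80.0 and 82.7 Mb of chromosome 10, upstream of Txnrd1, 6 of 122 tested genes were in the class (4.92%), 2 higher and 4 lower. This stretch starts and ends at genes of the class, so that its share cannot be set against that of all genes. Within 5 Mb of the Txnrd1 start, a fixed window, 231 genes were tested. Of these 7 were in the class, which held 1.36% of all genes, and Txnrd1 alone had a called interaction (0.928% of all genes). Tdg starts 204 kb upstream of Txnrd1. The predicted genes Gm8170, Gm32687 and Gm3055, 813, 970 and 1091 kb upstream, were lower in both fractions, with beta effects of −1.99, −1.82 and −1.99 and non-beta effects of −1.47, −1.14 and −1.53 (average effect edgeR adjusted p = 0.027, 0.00255 and 0.00242). Gm4924, 480 kb upstream, was higher in both, at 0.61 and 0.60 (edgeR adjusted p = 0.0271). All mice of the knockout label carried the floxed Txnrd1 region in both fractions, so that the floxed allele and what lies beside it cannot be told apart here from a response of the cells.

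**Figure D5:**
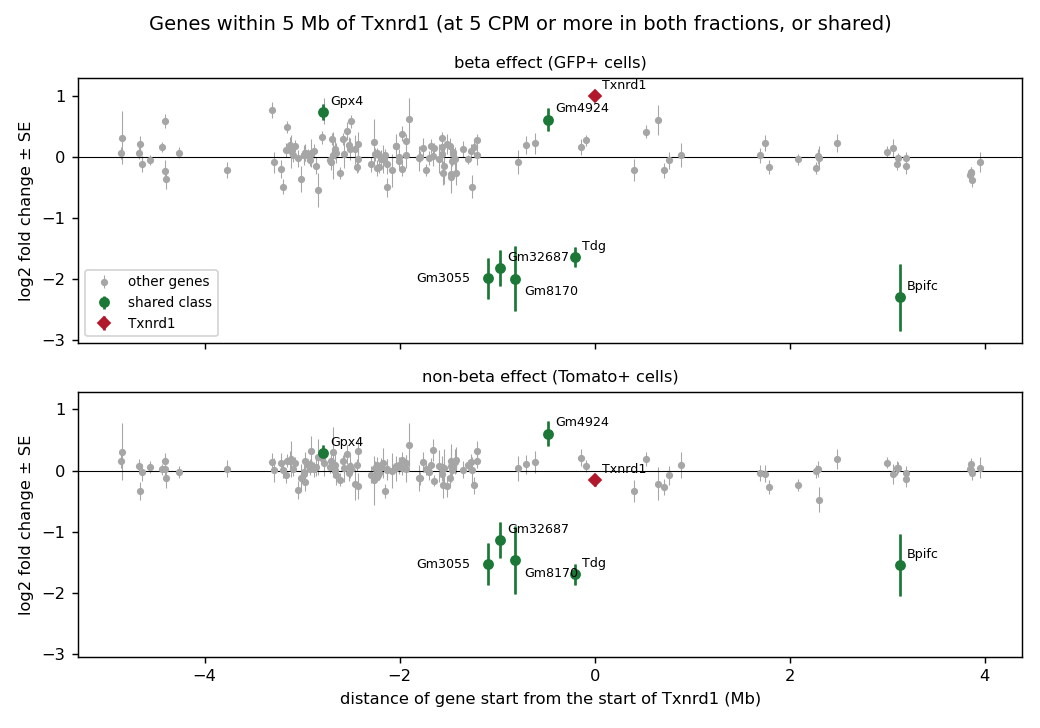
Log2 fold change ± standard error, knockout-labelled over control, of genes within 5 Mb of the start of Txnrd1 (x axis, distance in Mb) in beta (upper) and non-beta cells (lower). Txnrd1 (diamond) is higher in beta cells only, at 1.0 against −0.15, while Tdg and 3 predicted genes within about 1 Mb upstream are low in both panels.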

How the data were processed

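RNA of 13 libraries of sorted islet cells was turned into cDNA from a small input with a SMARTseq workflow, completed with a Nextera kit and sequenced in pairs, per the labels' protocols. The authors deposited whole-number counts per gene, not normalised. The submitters' processing notes name FastQC, STAR, edgeR and the mouse build GRCm38.p6. Versions, the counting program, the annotation release, the strand setting and the treatment of shared reads are not given in the sources used here, so that reads of overlapping or antisense genes may not have been told apart.

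The deposited counts were tested with edgeR 4.0.16 in R 4.3.3. Genes kept by filterByExpr over the 4 groups were scaled by TMM and fitted with 1 mean per group over all 13 libraries, which share 1 estimate of the spread. Quasi-likelihood tests of 4 contrasts, the interaction, both fraction effects and their average, were adjusted by Benjamini-Hochberg over all genes tested, with 0.05 as the threshold for a call. CPM are scaled by TMM, in the order of the replicate numbers, and 95% intervals are those of the fitted log2 fold change. Library totals of 28687466 to 36775079 counts set the precision of low genes. The script was tested on simulated data.

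The genes named were Txnrd1, the 10 highest and 10 lowest called interactions among genes measured in both fractions, and the 5 highest and 5 lowest among other called genes. Added were up to 5 non-beta-led and 5 opposite genes by interaction p, the 10 shared bounded genes without overlap of labels in either fraction that had the smallest p of the average effect, and the 4 members of each list with the smallest interaction p. All but the list members had at least 5 CPM in 1 group, and predicted genes and pseudogenes by name were passed over. Other members, markers and neighbours of Txnrd1 were named after their values were seen. The contrast, its classes and the lists were chosen with earlier results of these data known. Alternatives were DESeq2 1.42.0, voom from limma 3.58.1, RLE scaling, hormone genes left out, no filter or a filter of 2 CPM in 3 libraries, left-out libraries and replicate blocks. Coordinates and shares of exon bases come from GENCODE on GRCm38, and start regions from RefSeq.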

Additional observations from a re-analysis of the deposited data

Results flagged for a closer look

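The difference between the genotype labels was not the same in the beta and the non-beta fraction for 51 named genes, by the interaction test (edgeR quasi-likelihood, adjusted p under 0.05). Txnrd1 had an interaction of 1.15 on the log2 scale. In the NRF2 and glutathione lists it was 2.82 for Hmox1, 2.72 for Pir, 2.60 for Gstp2, 2.53 for Slc7a11, 2.31 for Gstp1, 1.85 for Cat, 1.70 for Srxn1, 1.37 for Gclc, 1.33 for Gsto1, 1.09 for Ftl1, 0.90 for Me1, 0.77 for Taldo1 and −0.86 for G6pdx. In the Ugt1a cluster it was 2.55 for Ugt1a6a, 2.51 for Ugt1a7c, 2.43 for Ugt1a6b and Ugt1a1 and 2.41 for Ugt1a5 and Ugt1a10. Stress genes had 2.94 for Slc7a3, 1.82 for Hspb8, 1.66 for Gdf15 and 1.03 for Cebpb.

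Negative values among genes measured in both fractions were −2.09 for Icam1, −2.0 for H2-Q6, −1.83 for Gria3, −1.47 for C8b, −1.40 for Enpep, −1.27 for Tnr, −1.26 for Gpd2, −1.18 for Upp1, −1.10 for Slc7a2, −1.06 for Ero1lb and −0.97 for Slc30a8. Genes below 5 CPM in at least 1 fraction had 3.81 for Ptpn14, 3.50 for Ugt2b35, 3.41 for F2r, 3.10 for Sh2b2, 3.01 for Filip1l, −3.57 for Col6a3, −2.38 for Fmo1, −2.28 for Pcdh15, −2.14 for AW112010 and −2.06 for Cdh7. The non-beta-led and opposite genes had 0.68 for Rps4l, 2.60 for Pde2a, 1.18 for Entpd5, 1.14 for Grb10, 1.12 for Ppfibp1 and 0.94 for Slc9a3r2.

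Of 61 named genes, 2 had a control beta library far from the other 3, where chance alone marks about 1 in 20. Hmox1 was at 69.1 CPM in replicate 4 against 32.9 to 37.5 CPM in the others, a gap of 0.874 of the range. Filip1l was at 0.098 CPM in replicate 1 against 0.030 to 0.036 CPM, a gap of 0.912 of the range at a level of a few reads.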

How the results depend on the processing

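All 185 called interactions kept their sign in all 24 alternatives in which they were tested. Leaving out 1 library at a time gave 62 to 289 called interactions, 686 to 2149 beta effects, 2 to 7 non-beta effects, 296 to 1352 average effects, 61 to 270 beta-led, 128 to 604 shared and 66 to 467 shared genes with a bounded interaction, against 185, 1673, 3, 794, 181, 271 and 175. DESeq2 called 557 interactions, of which 181 were among the 185, 2535 beta, 47 non-beta and 1691 average effects, with 508 beta-led and 286 bounded shared genes. The non-beta count was 8 with no filter on low counts and 5 with limma-voom. Without both control libraries numbered 4 the interaction count was 90, beta-led genes 87 and non-beta effects 5. Without both knockout-labelled libraries numbered 3, which held the most RNA of the other fraction, average effects rose to 1896 in number, shared genes to 849 and bounded ones to 682, and interactions were 154. Each fraction fitted alone gave 3525 beta and 0 non-beta effects, with 821 of the latter at an unadjusted p under 0.05. The cause of these shifts was not tested.

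The replicate numbers were tried as a pairing of beta and non-beta libraries. Same-numbered libraries of a label correlated at 0.066 to 0.284 in their deviations from the group means, under 0.1 for 2 of 6 numbers. The highest correlation of a beta library with another number was −0.106 to −0.005. Each beta library with a same-numbered partner thus correlated best with its own number, a hint from the data that the labels do not settle. The non-beta deviations of a label cancel out over its libraries, so that a high value with the same number lowers those with the others. These comparisons are therefore not independent. The main fit used no pairing. With a replicate block by label and number edgeR called 50 interactions, 46 of them among the 185. With a block by number alone it called 161 interactions, 5 non-beta and 483 average effects, 180 shared and 113 bounded genes. With limma-voom and the block as an estimated correlation of 0.133 the counts were 273 interactions, 5 non-beta and 487 average effects, 174 shared and 110 bounded genes.

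Over the named genes and alternatives, 2663 values kept direction and side of the threshold, 202 lost a call, 47 gained it and 2 turned in sign. Both that turned were the interaction of the hexokinase gene Hk1, which had no call: with 1 library left out at a time it ran from −0.23, without knockout-labelled beta replicate 3, to 2.16, and it was −0.287 without both libraries of that number, against 1.70. Depth limited genes near 0 in control beta cells, where fitted folds rest on few reads.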
